A study of Drosophila melanogaster with 12 samples.

Results

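The genes described here lie on chromosome 4, the smallest autosome of Drosophila melanogaster. They were chosen as 42 listed genes of that chromosome, and 34 of them were represented by 42 of the 18952 probe sets on the array that carried a single gene symbol, among 11982 genes so represented. All 34 were placed on chromosome 4 by the gene table used, and 38 of their probe sets, from 33 genes, had enough signal to be tested. The other 8 listed genes (PlexA, pan, lgs, CaMKII, Arl4, PIP4K, Thd1 and Arf102F) were not analysed here.

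RNA was taken from eye-antennal imaginal discs, the larval epithelia that form the adult eye, antenna and head capsule, of larvae wandering at the end of the third instar. Each array received RNA from 30 pairs of discs, of which 100 ng was amplified in a pair of rounds. Each of the 4 genotypes was measured on 3 arrays, stated to be biological replicates. The ey-Gal4 discs carried only the driver, which makes the yeast activator Gal4 under control of eyeless (ey) sequences, and the UAS-wge discs carried only the responder, a copy of winged eye (wge) under Gal4 control. The ey>wge discs carried both, a combination meant to express wge where the driver is active. The remaining discs, called the allele-pair discs below, carried both transgenes and Su(var)3-9[1]/[2], that is, different alleles of a histone methyltransferase gene on the homologous chromosomes. No genotype had the allele pair without the transgenes, so the allele pair was compared only in discs with both transgenes. Every sample is a whole disc, in which fewer cells of a type and less RNA per cell cannot be told apart.

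Chromosome 4 is known for carrying active genes inside chromatin that otherwise has the marks of heterochromatin. Heterochromatin protein HP1 and methylated lysine 9 of histone H3 cover much of its arm, where the methyltransferase Setdb1, encoded by egg, has the main part, whereas Su(var)3-9 acts mainly around the centromeres. The protein Pof binds the genes of this chromosome. Among these genes are ey and toy, Pax factors of the eye, which are not members here, and many genes of nerve and muscle cells.

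The arrays were checked before the members were read. The wge probe set gave a mean signal of 846 ± 93 (SD, n = 3) for the driver alone, 853 ± 69 for the responder alone, 1067 ± 126 for ey>wge and 663 ± 216 for the allele-pair discs. Its rise in ey>wge against both controls averaged did not pass the test (log2 change 0.32, adjusted p = 0.498, limma), and it fell by 0.72 in the allele-pair discs against ey>wge (adjusted p = 0.036). Whether this probe set reads the transgene's RNA was not tested, so the wge signal does not check the genotype labels. No probe set with Su(var)3-9 as its only symbol was used here. The defining markers of the eye were present, since the summed signal of 9 eye field and retina genes was 16179 to 20140 in the 6 control arrays, and it was 5785 to 6149 in ey>wge, where all 9 genes fell. Allele-pair arrays 2 and 3 stood apart from the rest: on the first principal component they lay at 51.6 and 66.8, allele-pair array 1 at 17.2 and the other 9 arrays between -29 and 2.4. Their median signals were 33 and 34, against 38.7 to 44.4 on the other 10 arrays, so results for the allele pair are also given from array 1 alone. Array 1 stood apart in its turn on fat body markers, with a summed signal of 662.8 for the 3 of 5 listed genes that had a probe set, against 60.2 to 174.5 on the other 11 arrays. The part of fat body RNA in the values of that array was not tested.

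**Figure D1:**
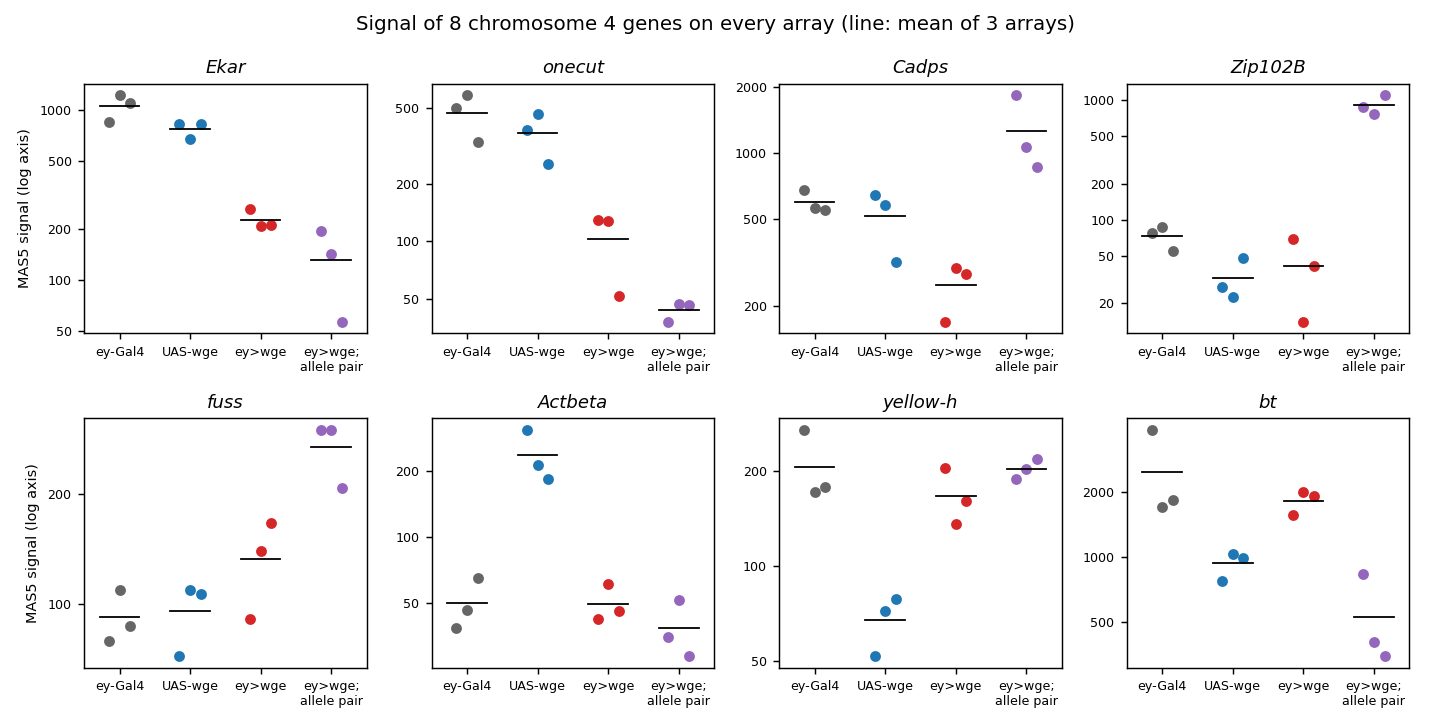
Each panel plots 1 of 8 chromosome 4 genes, with the MAS5 signal of a probe set on a log axis and 1 point per array, for the 4 genotypes in turn. The line is the mean of the 3 arrays. The ey>wge arrays of Ekar and onecut lie below all control arrays, and the allele-pair arrays of Zip102B, Cadps and fuss lie above all other arrays.

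The first comparison asked how the combination of driver and responder in the eye disc went with the level of these genes. Few of them changed: Ekar, onecut and Cadps fell in ey>wge against both controls averaged and no member rose. The 3 changed probe sets were 7.89% of the 38 tested, and 2.97% of all 13817 tested probe sets changed, 2.07% lower and 0.897% higher. The median log2 change was -0.117 over the member probe sets and 0.01 over all probe sets tested. Between the control lines, UAS-wge against ey-Gal4, these medians were -0.151 and 0.006. At an unadjusted p under 0.05 (limma) the members gave 9 probe sets in ey>wge, or 23.7%, against 11.8% of all. Between the control lines they gave 8, or 21.1%, against 14% of all. The count of changed members in ey>wge was 5 without allele-pair array 1, which enters through the shared estimate of spread. It was 2 without ey>wge array 1. With the filter on low signal raised to the 60th percentile it was 3, where 5.34% of all kept probe sets changed. With ey-Gal4 alone as the control 3 members fell and none rose (3.63% of all probe sets changed, 2.29% lower and 1.35% higher), and that count was also 5 without allele-pair array 1. It was 2 without each ey-Gal4 array in turn and without ey>wge array 1. Counting arrays instead, 7 members, or 18.4%, had all 3 ey>wge arrays below all 6 control arrays, where 4.44% of all probe sets did, and 0 had them all above, where 3.21% did. With UAS-wge alone Ekar, onecut and Actbeta fell and yellow-h rose (3.7% of all changed, 1.96% lower and 1.74% higher).

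Among the genes of synaptic transmission, Ekar encodes a kainate-type glutamate receptor subunit of photoreceptors. Its signals were 853, 1222 and 1096 on the ey-Gal4 arrays, 826, 674 and 820.2 on the UAS-wge arrays, 263, 207 and 211 on the ey>wge arrays and 196, 143 and 57 on the allele-pair arrays. Every ey>wge array was below every control array, and every allele-pair array was lower again. Ekar fell by 1.92 ± 0.25 (SE) on the log2 scale in ey>wge against both controls averaged (adjusted p = 8.6e-05, limma), by 2.13 against ey-Gal4 (adjusted p = 0.00015) and by 1.70 against UAS-wge (adjusted p = 0.0011). These calls held under all 25 alternative settings. The difference between the allele-pair discs and ey>wge, -0.84 ± 0.28, did not pass the test (adjusted p = 0.083).

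The transcription factor onecut, a Cut-class homeodomain protein of neurons, was low in the same groups. Its signals were 499.6, 582 and 329 on the ey-Gal4 arrays, 384, 461 and 254 on the UAS-wge arrays, 129, 128 and 51.8 on the ey>wge arrays and 37.9, 46.9 and 46.1 on the allele-pair arrays. The ey>wge arrays did not overlap the controls, and the allele-pair arrays lay below all of them. In ey>wge onecut fell by 1.90 ± 0.27 on the log2 scale against both controls averaged (adjusted p = 0.00022), by 2.08 against ey-Gal4 (adjusted p = 0.00046) and by 1.73 against UAS-wge (adjusted p = 0.0022), also under all 25 alternatives. Between the allele-pair discs and ey>wge the log2 difference was -0.92 ± 0.31 (adjusted p = 0.084).

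Signals of neuronal markers moved with these genes. The summed signal of the 5 neuron markers with a probe set, out of 6 listed, was 1729 to 2383 in the 6 control arrays, 586 to 892 in ey>wge and 355 to 598 in the allele-pair discs, and 3 of the 5 fell in ey>wge against both controls averaged. Their log2 changes there lay between -1.858 and -0.235. Much of the sum came from elav, at 1617 of 2298 on ey-Gal4 array 1, and elav is also listed among the retina genes. The part of these markers, and of the retina genes given above, in the changes of Ekar and onecut was not tested.

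Cadps encodes the activator of dense-core vesicle release and was read by a pair of probe sets. The brighter one gave 675, 561 and 545 on the ey-Gal4 arrays, 643, 575 and 318 on the UAS-wge arrays, 169, 296 and 279.9 on the ey>wge arrays and 1839.7, 1059 and 862 on the allele-pair arrays. It was therefore lowest in ey>wge and highest in the allele-pair discs, with no overlap between either group and the controls. It fell by 1.11 ± 0.24 on the log2 scale in ey>wge against both controls averaged (adjusted p = 0.013), a call that was lost without ey>wge array 1 (-0.87, adjusted p = 0.15). Against ey-Gal4 it fell by 1.24 (adjusted p = 0.016), and this call was lost without any 1 ey-Gal4 array or without ey>wge array 1, with an adjusted p of up to 0.11. Against UAS-wge the log2 difference was -0.98 (adjusted p = 0.067). The opposite sign in the allele-pair discs, a rise of 2.23 ± 0.28 against ey>wge (adjusted p = 0.00014) and of 1.12 ± 0.24 against both controls averaged (adjusted p = 0.0033), was called under all 25 alternatives, and both of these comparisons use the same 3 allele-pair arrays. The dimmer Cadps probe set gave 80.5, 82 and 66.9 on the ey-Gal4 arrays, 59.3, 61 and 47.6 on the UAS-wge arrays, 42.1, 37.4 and 43.9 on the ey>wge arrays and 151, 67.1 and 63.7 on the allele-pair arrays. Its order of ey>wge below the controls was the same, with a log2 difference of -0.51 (adjusted p = 0.51), and the allele-pair discs differed from ey>wge by 0.86 (adjusted p = 0.11), or by 1.18 with the trend on gene span removed, where it was called (adjusted p = 0.022).

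**Figure D2:**
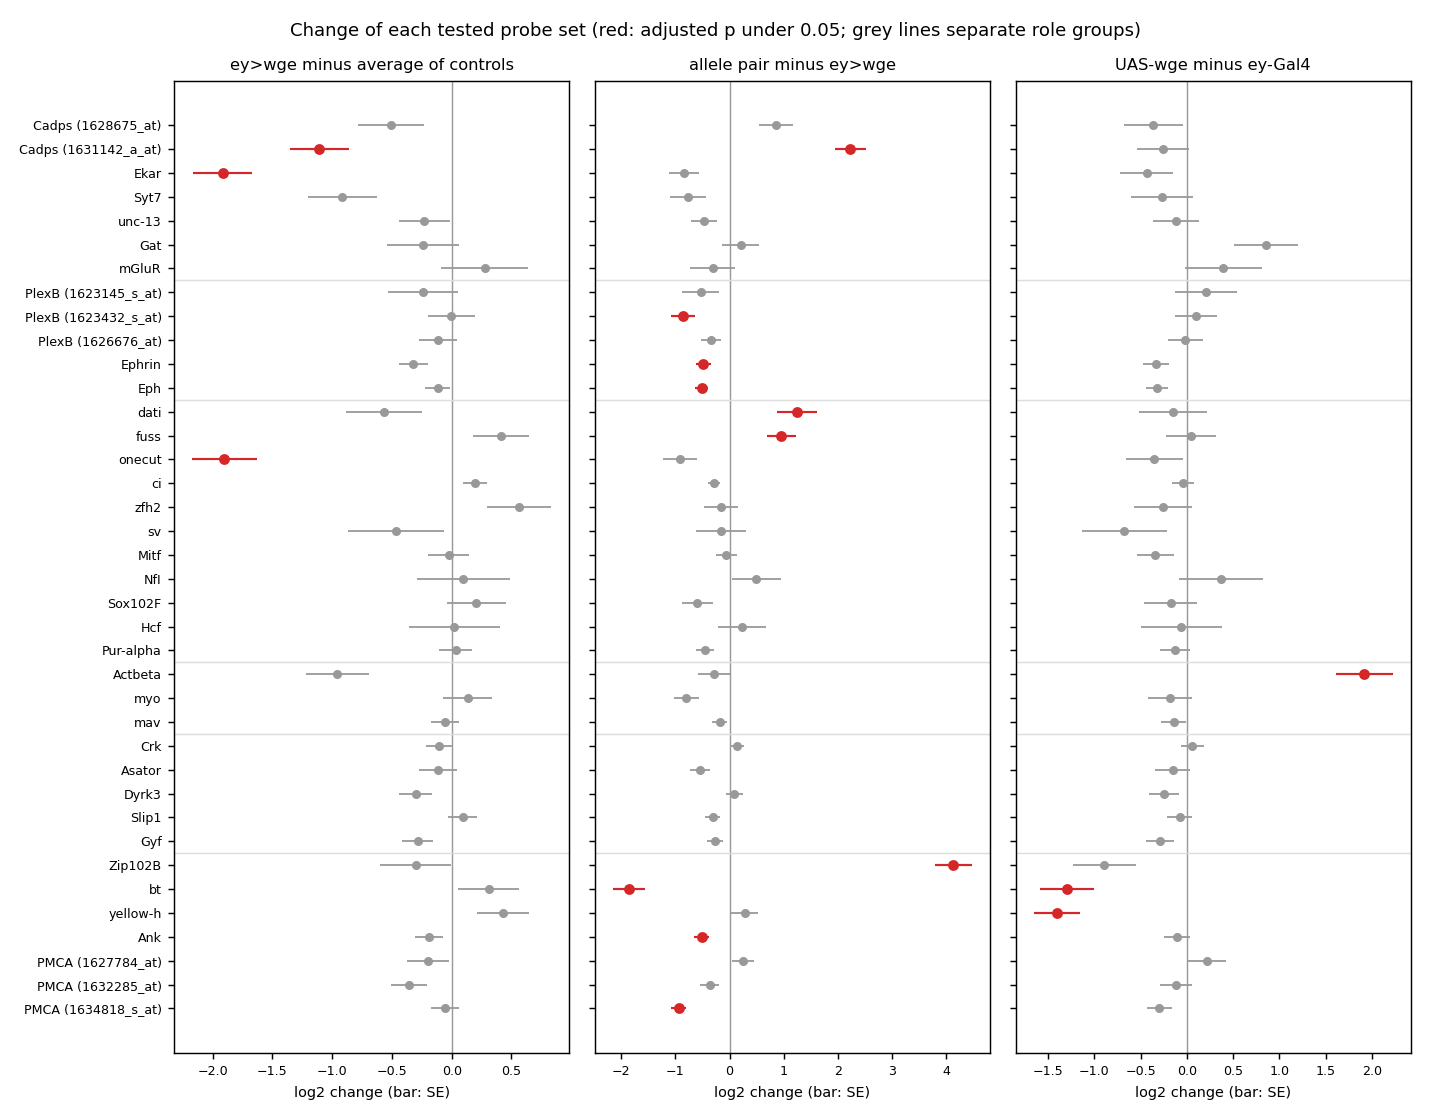
Log2 change of each tested member probe set in ey>wge against both controls averaged, in the allele-pair discs against ey>wge and in UAS-wge against ey-Gal4, with bars of 1 SE and red points for an adjusted p under 0.05. Ekar and onecut lie near -1.9 in ey>wge, and Zip102B lies at 4.13 in the allele-pair discs.

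The second comparison asked what differed with the allele pair in discs that carry both transgenes. In the allele-pair discs 4 member probe sets rose (Zip102B, Cadps, dati and fuss) and 6 fell (PlexB, Ephrin, Eph, bt, Ank and PMCA) against ey>wge. These 10 were 26.3% of the 38 tested, where 6.8% of all probe sets changed, 2.23% higher and 4.57% lower, and the members' median log2 change was -0.3 against -0.08 over all. Some glia markers fell in the same comparison: 3 of 6, moody by 1.62, Gs2 by 1.37 and loco by 0.48. The log2 changes of the 6 ran from -1.62 to 0.46, with Gli at -0.07 and nrv2 the highest. The summed signals of the glia markers overlapped, at 14287 to 16418 in ey>wge and 11651 to 16579 in the allele-pair discs. The part of the glia markers in the members' changes was not tested. Against the mean of both controls 20 member probe sets changed, 4 higher and 16 lower, or 52.6%, and PMCA was among them with more than 1 probe set. Of all probe sets 21.1% changed there, 8.46% higher and 12.7% lower, and the medians were -0.405 and -0.079. The members were brighter: their median log2 signal was 8.164 to 9.597 per array, against 7.015 to 7.615 over all tested probe sets. With the filter on low signal raised to the 60th percentile, 21 members changed against the controls, where 38.7% of all kept probe sets did. Against ey>wge 10 members changed under that filter, where 14.2% of all did. The number of members kept under it is not given here, and the part of signal level in these shares was not tested. The 3 allele-pair arrays lay above the 3 of ey>wge for 5 members (13.2%, where 8.63% of all did) and below them for 11 (28.9%, where 13.6% did). They lay above all 6 control arrays for 3 members (7.89%, where 6.08% did) and below them for 10 (26.3%, where 9.46% did).

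The count against ey>wge depended on single arrays. It was 17 without allele-pair array 1, 4 without allele-pair array 2, 6 without allele-pair array 3, and 4 without ey>wge array 1 or array 2. For these fits the share of all probe sets changed is not given here, so moves of the members and of the whole array were not told apart. With allele-pair array 1 alone, treated as varying like the other genotypes, 3 members changed against ey>wge (Zip102B and Cadps higher, PMCA lower), where 1.25% of all probe sets did. Against the mean of both controls 9 changed with that array alone, where 4.76% of all did: Zip102B, Cadps and fuss were higher and Ekar, Syt7, onecut, Ephrin, PMCA and Eph lower. The median log2 difference of the members from the mean of ey>wge was -0.052 on allele-pair array 1, -0.266 on array 2 and -0.531 on array 3, against -0.004, -0.102 and -0.134 over all probe sets. On these arrays 15, 20 and 26 of the 38 members lay below all 3 ey>wge arrays, which is 39.5%, 52.6% and 68.4%, against 29.3%, 38.9% and 41.6% of all probe sets.

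The arrays that stood apart also differed by gene length. Over all probe sets the rank correlation between the difference from ey>wge and the genomic span of the gene was -0.029, -0.302 and -0.398 on allele-pair arrays 1, 2 and 3, a description across genes, and the median span was 12205 bases for the members and 2864 bases over all. With the trend on span removed, 8 members changed against ey>wge, 5 higher and 3 lower, where 5.62% of all probe sets did, and with each array centred on its median 7 changed, 5 higher and 2 lower, where 11.3% of all did. Against the mean of both controls the same settings called 18, 8 higher and 10 lower, and 16, 6 higher and 10 lower, where 18.1% and 26.1% of all probe sets changed. Among the members called higher against the controls were dati and zfh2 under both settings, and the dimmer Cadps and a PMCA probe set with the span trend removed, none of which was called there in the fit used elsewhere. Centring moved the median of all probe sets from -0.08 to 0.221 against ey>wge and from -0.079 to 0.247 against the controls. The part of gene span in the members' changes beyond these settings was not tested.

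**Figure D3:**
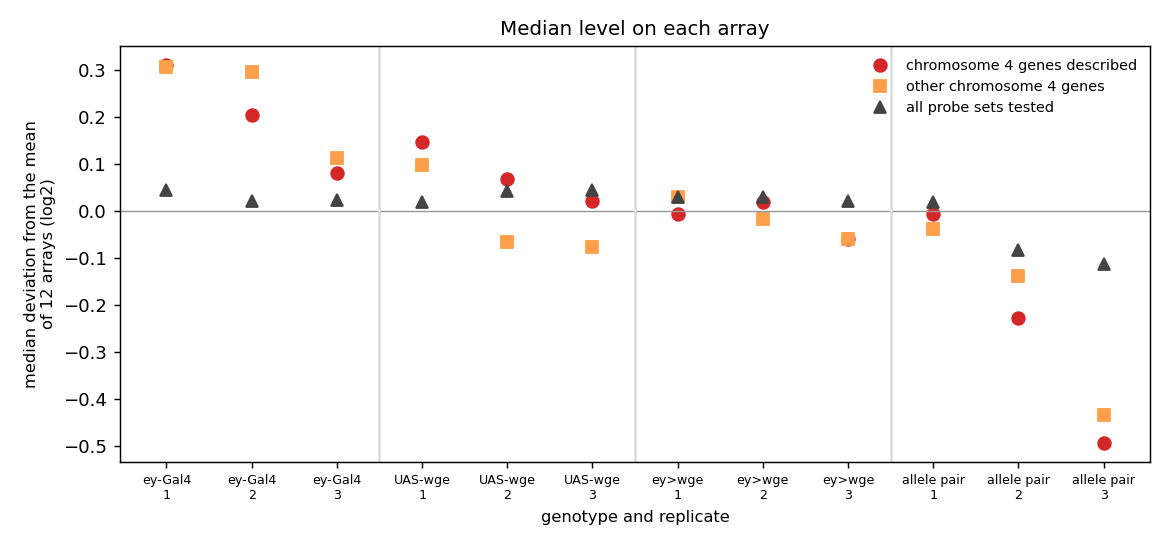
Median deviation of each array from each probe set's mean over the 12 arrays, on the log2 scale, for the member probe sets, the other chromosome 4 genes and all tested probe sets, by genotype and array. The members lie at 0.311, 0.205 and 0.081 on the ey-Gal4 arrays and at -0.007, -0.228 and -0.493 on the allele-pair arrays.

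Of the genes for cytoskeleton, transport and metabolism, Zip102B, a zinc transporter of the ZIP family, changed most. Its signals were 77.7, 86.6 and 55 on the ey-Gal4 arrays, 27.2, 22.6 and 48 on the UAS-wge arrays, 68.4, 14.1 and 40.8 on the ey>wge arrays and 876, 764 and 1095 on the allele-pair arrays. All 3 allele-pair arrays were above the 9 others, which lay between 14.1 and 86.6. Zip102B was above the filter on low signal on 10 of the 12 arrays. It rose by 4.13 ± 0.34 on the log2 scale against ey>wge (adjusted p = 1e-06) and by 3.83 ± 0.30 against both controls averaged (adjusted p = 7.6e-08). Over the 25 alternatives the rise against ey>wge was 3.23 to 4.68, the lowest and the highest with pseudocounts of 64 and 1, and it was 4.09 with allele-pair array 1 alone (adjusted p = 0.00046).

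PMCA encodes the plasma membrane calcium pump and was read by 3 probe sets, which did not move alike. One gave 1586, 1326 and 1480.2 on the ey-Gal4 arrays, 1230.2, 1155 and 1166 on the UAS-wge arrays, 1246, 1257 and 1287 on the ey>wge arrays and 699, 691 and 568 on the allele-pair arrays. These allele-pair values lay below every other array, and the fall of 0.94 ± 0.13 on the log2 scale against ey>wge (adjusted p = 0.00045) and of 1.00 ± 0.12 against both controls averaged (adjusted p = 9e-06) was called under all 25 alternatives. The second PMCA probe set gave 3373, 3728 and 3189 on the ey-Gal4 arrays, 3189, 3174 and 3118 on the UAS-wge arrays, 2619.6, 2446 and 2621 on the ey>wge arrays and 2821, 1924 and 1431 on the allele-pair arrays. It fell by 0.73 against both controls averaged (adjusted p = 0.0022) but not with allele-pair array 1 alone (-0.22, adjusted p = 0.4). The third PMCA probe set, at 352, 242 and 340.1 on the ey-Gal4 arrays, 332, 373 and 379 on the UAS-wge arrays, 279, 309.8 and 277 on the ey>wge arrays and 456, 288 and 311 on the allele-pair arrays, passed the test in no comparison without a change of setting, and it was called higher against both controls averaged with the span trend removed (0.46, adjusted p = 0.046).

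Ank encodes the ankyrin that links membrane proteins to spectrin. Its tested probe set gave 7617, 6418 and 6813 on the ey-Gal4 arrays, 7047, 5984 and 6343 on the UAS-wge arrays, 5558, 6301 and 5706 on the ey>wge arrays and 4949.7, 4210.2 and 3274 on the allele-pair arrays. The allele-pair arrays were the 3 lowest. Ank fell by 0.52 ± 0.14 on the log2 scale against ey>wge (adjusted p = 0.032), a call lost without any 1 ey>wge array or without allele-pair array 2 or 3 (adjusted p up to 0.14), and by 0.71 ± 0.12 against both controls averaged (adjusted p = 0.00045). With allele-pair array 1 alone neither fall was called (adjusted p = 0.56 and 0.072).

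The muscle gene bt encodes projectin, a titin-like protein of the sarcomere. Its signals were 3906, 1712 and 1848 on the ey-Gal4 arrays, 777, 1039.8 and 995 on the UAS-wge arrays, 1564, 2004 and 1935 on the ey>wge arrays and 836, 404 and 347 on the allele-pair arrays. The UAS-wge arrays lay below those of ey-Gal4 and ey>wge, and allele-pair arrays 2 and 3 were lowest of all. In the allele-pair discs bt fell by 1.86 ± 0.29 on the log2 scale against ey>wge (adjusted p = 0.0012) and by 1.55 ± 0.25 against both controls averaged (adjusted p = 0.00034), and with allele-pair array 1 alone neither was called (-1.11, adjusted p = 0.13, and -0.80, adjusted p = 0.16). Muscle markers moved with it: the summed signal of the 5 markers with a probe set, out of 9 listed, was 2678 to 7006 on the ey-Gal4 arrays, 1545 to 2373 on the UAS-wge arrays, 3211 to 4044 in ey>wge and 715 to 1926 in the allele-pair discs, and 4 of the 5 fell in the allele-pair discs against ey>wge. Their part in the changes of bt was not tested.

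The guidance receptors and ligands carry signals between touching or nearby cells, and their changes in the allele-pair discs were downward. Ephrin, the membrane-bound ligand, gave 965, 921 and 906 on the ey-Gal4 arrays, 818, 708 and 683 on the UAS-wge arrays, 632, 694 and 652 on the ey>wge arrays and 471, 476 and 450.4 on the allele-pair arrays. Its receptor Eph gave 3351, 3029 and 2863 on the ey-Gal4 arrays, 2672, 2469 and 2242 on the UAS-wge arrays, 2735, 2522 and 2348 on the ey>wge arrays and 1833, 1724 and 1749.9 on the allele-pair arrays. For both genes the ey-Gal4 arrays were the highest and the 3 allele-pair arrays the lowest. Against ey>wge Ephrin fell by 0.49 ± 0.14 on the log2 scale (adjusted p = 0.046) and Eph by 0.51 ± 0.12 (adjusted p = 0.017). The first call was lost in 11 of the 12 fits that left out 1 array (adjusted p up to 0.14), and the second without ey>wge array 1 or 2 or allele-pair array 2 (adjusted p up to 0.089). Against the mean of both controls Ephrin fell by 0.81 ± 0.12 (adjusted p = 0.00017) and Eph by 0.63 ± 0.10 (adjusted p = 0.00037), and both calls held with each array left out and with allele-pair array 1 alone. The fall of Eph was not called once arrays were centred on their medians (-0.305, adjusted p = 0.093) or the span trend was removed (-0.30, adjusted p = 0.066).

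PlexB, a plexin receptor for semaphorins, had 3 tested probe sets, and 1 of them changed. That one gave 1628, 1196 and 1289 on the ey-Gal4 arrays, 1501, 1542 and 1334 on the UAS-wge arrays, 1344, 1654 and 1241 on the ey>wge arrays and 1239.5, 677 and 533 on the allele-pair arrays. Allele-pair array 1 was close to the lowest ey>wge array, and arrays 2 and 3 were below all others. The fall of 0.86 ± 0.22 on the log2 scale against ey>wge (adjusted p = 0.029) was lost without any 1 ey>wge array or without allele-pair array 2 or 3 (adjusted p up to 0.14), and with allele-pair array 1 alone the difference was -0.18 (adjusted p = 0.78). Against the mean of both controls the fall was 0.86 ± 0.20 (adjusted p = 0.0042), and -0.18 with allele-pair array 1 alone (adjusted p = 0.66). The other PlexB probe sets gave 177, 134 and 91.6 and 3541, 3256 and 2979.9 on the ey-Gal4 arrays, 142, 178 and 140.2 and 3493, 3553 and 2675 on the UAS-wge arrays, 136, 109 and 108 and 3081, 3582 and 2405 on the ey>wge arrays, and 149, 62 and 43.7 and 2995, 2525 and 1707 on the allele-pair arrays. Neither passed the test in any comparison in the fit used elsewhere. In the allele-pair discs against both controls averaged they differed by -0.78 (adjusted p = 0.066, limma) and -0.46 (adjusted p = 0.051). Without allele-pair array 1 both were called lower, against ey>wge and against both controls averaged.

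Of the 11 tested transcription factors and cofactors, fuss and dati rose in the allele-pair discs against ey>wge. The Ski/Sno family protein gene fuss gave 79.7, 109.5 and 87.5 on the ey-Gal4 arrays, 72.2, 109 and 107 on the UAS-wge arrays, 91.1, 139.9 and 167 on the ey>wge arrays and 299, 299 and 207 on the allele-pair arrays. The allele-pair arrays were the 3 highest. It rose by 0.95 ± 0.27 on the log2 scale against ey>wge (adjusted p = 0.042), a call lost in 7 of the 12 fits that left out 1 array (adjusted p up to 0.18), and by 1.36 ± 0.23 against both controls averaged (adjusted p = 0.00051), a call kept under all 25 alternatives.

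The zinc-finger gene dati gave 61.8, 37.8 and 36.2 on the ey-Gal4 arrays, 35.4, 42.8 and 37 on the UAS-wge arrays, 28.6, 7.2 and 39.7 on the ey>wge arrays and 92, 61.8 and 74.9 on the allele-pair arrays. The allele-pair arrays were above all ey>wge arrays, and 1 of them equalled an ey-Gal4 array. Its rise of 1.24 ± 0.36 against ey>wge (adjusted p = 0.048) was lost in 11 of the 12 fits that left out 1 array (adjusted p up to 0.2), and against the controls the difference was 0.68 (adjusted p = 0.14). Pur-alpha, a single-stranded nucleic acid binding protein gene, gave 868, 877 and 792 on the ey-Gal4 arrays, 798, 739 and 786 on the UAS-wge arrays, 829, 702 and 969 on the ey>wge arrays and 735, 548 and 534 on the allele-pair arrays. Its fall of 0.42 ± 0.14 against the controls (adjusted p = 0.04) was lost in 9 of those 12 fits (adjusted p up to 0.17). Over the 25 alternatives the Pur-alpha difference was -0.566 to -0.096.

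Changes that passed the test only against both controls averaged were found among the synaptic, ligand and adaptor genes. Syt7, a calcium sensor of the synaptotagmin family, gave 159, 169.8 and 179.5 on the ey-Gal4 arrays, 229, 103 and 109 on the UAS-wge arrays, 92.8, 80.9 and 52.1 on the ey>wge arrays and 39.5, 56 and 20.6 on the allele-pair arrays. The arrays of both groups with driver and responder lay below all controls. In the allele-pair discs Syt7 fell by 1.68 ± 0.29 on the log2 scale (adjusted p = 0.00052), under all 25 alternatives, and in ey>wge the difference was -0.91 (adjusted p = 0.13). The synaptic vesicle priming gene unc-13 gave 3187, 3039.8 and 2848 on the ey-Gal4 arrays, 2728, 2762 and 2862 on the UAS-wge arrays, 2603, 2474 and 2348 on the ey>wge arrays and 3244, 1607 and 1072 on the allele-pair arrays. Allele-pair array 1 was its highest array and arrays 2 and 3 its lowest. The fall of 0.70 ± 0.21 (adjusted p = 0.025) became a difference of 0.16 with array 1 alone (adjusted p = 0.56), and it was lost without allele-pair array 2 (-0.63, adjusted p = 0.11) or array 3 (-0.34, adjusted p = 0.23).

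The ligand gene myo encodes myoglianin, a TGF-beta family member. It gave 337, 241 and 250.4 on the ey-Gal4 arrays, 277, 238 and 208 on the UAS-wge arrays, 255, 259.8 and 338 on the ey>wge arrays and 222, 131 and 128 on the allele-pair arrays. Its fall of 0.67 ± 0.20 against the controls (adjusted p = 0.027) was lost in 4 of the 12 fits that left out 1 array (adjusted p up to 0.14), and against ey>wge the difference was -0.80 ± 0.24 (adjusted p = 0.0503). Over the 25 alternatives the myo difference from the controls was -0.901 to -0.195, and its allele-pair array 1 lay within the range of the UAS-wge arrays. Asator, a kinase of the tau-tubulin kinase family, gave 1050.3, 1054 and 1016 on the ey-Gal4 arrays, 873, 1004 and 927 on the UAS-wge arrays, 821, 1039 and 878 on the ey>wge arrays and 879.6, 570.3 and 463 on the allele-pair arrays. Its fall of 0.67 ± 0.16 (adjusted p = 0.007) was lost without allele-pair array 3 (-0.47, adjusted p = 0.061). Over the 25 alternatives the Asator difference was -0.917 to -0.16, and its allele-pair array 1 lay within the range of the UAS-wge arrays. Gyf, whose mammalian relatives take part in translational repression, gave 6791, 5190.3 and 4553 on the ey-Gal4 arrays, 4385, 4455 and 4529 on the UAS-wge arrays, 3849, 4449.8 and 3832 on the ey>wge arrays and 3874, 3586 and 2723 on the allele-pair arrays. It fell by 0.55 ± 0.13 (adjusted p = 0.006), with -0.34 from allele-pair array 1 alone (adjusted p = 0.3). The falls of myo, Asator and Gyf were not called with the span trend removed (adjusted p = 0.12, 0.12 and 0.24) or with arrays centred on their medians (adjusted p = 0.225, 0.103 and 0.238).

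The controls themselves differed at a few of these genes, so each was also read against the other. In UAS-wge discs Actbeta rose and yellow-h and bt fell against ey-Gal4, 3 of 38 member probe sets, or 7.89% where 4.99% of all changed, 2.31% higher and 2.69% lower. Actbeta, the activin-like ligand, gave 38.3, 46.4 and 65 on the ey-Gal4 arrays, 307, 213 and 184 on the UAS-wge arrays, 42, 61 and 45.8 on the ey>wge arrays and 35, 51.7 and 28.5 on the allele-pair arrays. Only the UAS-wge arrays were high. Actbeta rose by 1.92 ± 0.31 on the log2 scale in UAS-wge against ey-Gal4 (adjusted p = 0.00057) and fell by 1.91 ± 0.31 in ey>wge against UAS-wge (adjusted p = 0.00073), while ey>wge and ey-Gal4 differed by 0.003 (adjusted p = 0.998). Its fall of 1.24 in the allele-pair discs against both controls averaged (adjusted p = 0.0029) has the UAS-wge arrays in that average. Hemocyte markers moved with it: the summed signal of 11 such genes was 9277 to 10294 on the ey-Gal4 arrays, 21088 to 30840 on the UAS-wge arrays, 7602 to 8482 in ey>wge and 5329 to 8210 in the allele-pair discs, and 8 of the 11 rose in UAS-wge against ey-Gal4. Their part in the change of Actbeta was not tested.

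The gene yellow-h belongs to the yellow family of secreted proteins. It gave 271, 172 and 178 on the ey-Gal4 arrays, 51.7, 72 and 78.6 on the UAS-wge arrays, 204.8, 136 and 161 on the ey>wge arrays and 189, 204 and 219.6 on the allele-pair arrays. The UAS-wge arrays were the 3 lowest, and the other genotypes overlapped. It fell by 1.41 ± 0.25 in UAS-wge against ey-Gal4 (adjusted p = 0.0017, called under all 25 alternatives) and rose by 1.13 ± 0.25 in ey>wge against UAS-wge (adjusted p = 0.012), a call lost without UAS-wge array 1 or ey>wge array 1 (adjusted p up to 0.083). Its rise of 0.71 in the allele-pair discs against both controls averaged (adjusted p = 0.026) was lost in 5 of the 12 fits that left out 1 array (adjusted p up to 0.1). The fall of bt by 1.30 ± 0.29 in UAS-wge against ey-Gal4 (adjusted p = 0.011) was lost without ey-Gal4 array 1 (-0.92, adjusted p = 0.076) or without UAS-wge array 1 (-1.17, adjusted p = 0.06), and 2 of the 5 muscle markers fell with it. Counting arrays that do not overlap, 12 of the 38 members, or 31.6%, lay lower in UAS-wge than in ey-Gal4, where 11.1% of all probe sets did, and 2, or 5.26%, lay higher, where 11.5% did.

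The 13 tested member genes with no call in any comparison included the abundant signalling genes. The Hedgehog pathway transcription factor ci gave 10178, 9734 and 8462 on the ey-Gal4 arrays, 9872, 9245 and 8446 on the UAS-wge arrays, 11889.6, 10439 and 9784 on the ey>wge arrays and 8048, 9303 and 8902 on the allele-pair arrays. Its arrays overlapped between ey>wge and the controls (log2 difference 0.20 ± 0.10, adjusted p = 0.47). Mitf, a lysosomal gene regulator, gave 1045, 894 and 843 on the ey-Gal4 arrays, 807, 786 and 601 on the UAS-wge arrays, 753, 879 and 782 on the ey>wge arrays and 529, 988 and 875 on the allele-pair arrays. The allele-pair arrays of Mitf overlapped those of every other group. The ligand gene mav gave 4268, 5009 and 4639 on the ey-Gal4 arrays, 3911, 4398 and 4277 on the UAS-wge arrays, 4448, 4134 and 4139 on the ey>wge arrays and 4251, 4135 and 2952 on the allele-pair arrays, with log2 differences between -0.24 and 0.02 over the 6 comparisons. Without allele-pair array 1 mav was called lower in the allele-pair discs against both controls averaged.

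The adaptor gene Crk, which links tyrosine kinase signals to the cytoskeleton, gave 5610.5, 5395 and 4708 on the ey-Gal4 arrays, 4937, 5691 and 5755 on the UAS-wge arrays, 4442, 5505 and 4969.5 on the ey>wge arrays and 4709, 5959 and 5733 on the allele-pair arrays. Slip1, a partner of the Slowpoke potassium channel, gave 4132, 3868 and 2980.0 on the ey-Gal4 arrays, 3647, 3862 and 2867 on the UAS-wge arrays, 3921, 3755 and 3599 on the ey>wge arrays and 2944, 3063 and 3057 on the allele-pair arrays. Crk overlapped between all groups, and Slip1 was lower on every allele-pair array than on every ey>wge array (-0.31 ± 0.14, adjusted p = 0.18). The GABA transporter gene Gat and the metabotropic glutamate receptor gene mGluR were dim. Gat gave 20.4, 22 and 30.1 on the ey-Gal4 arrays, 42.4, 72 and 57.6 on the UAS-wge arrays, 36, 24.8 and 28.6 on the ey>wge arrays and 25.8, 31.1 and 57.1 on the allele-pair arrays, and mGluR lay between 3.1 and 40.3 on all arrays. Gat was higher on every UAS-wge array than on every ey-Gal4 array without passing the test (0.86 ± 0.35, adjusted p = 0.24). The remaining genes without a call were zfh2 (called higher in the allele-pair discs against both controls averaged with the span trend removed, 0.84, adjusted p = 0.021), sv, NfI, Sox102F, Hcf and Dyrk3, and fd102C was below the filter and was not tested.

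**Figure D4:**
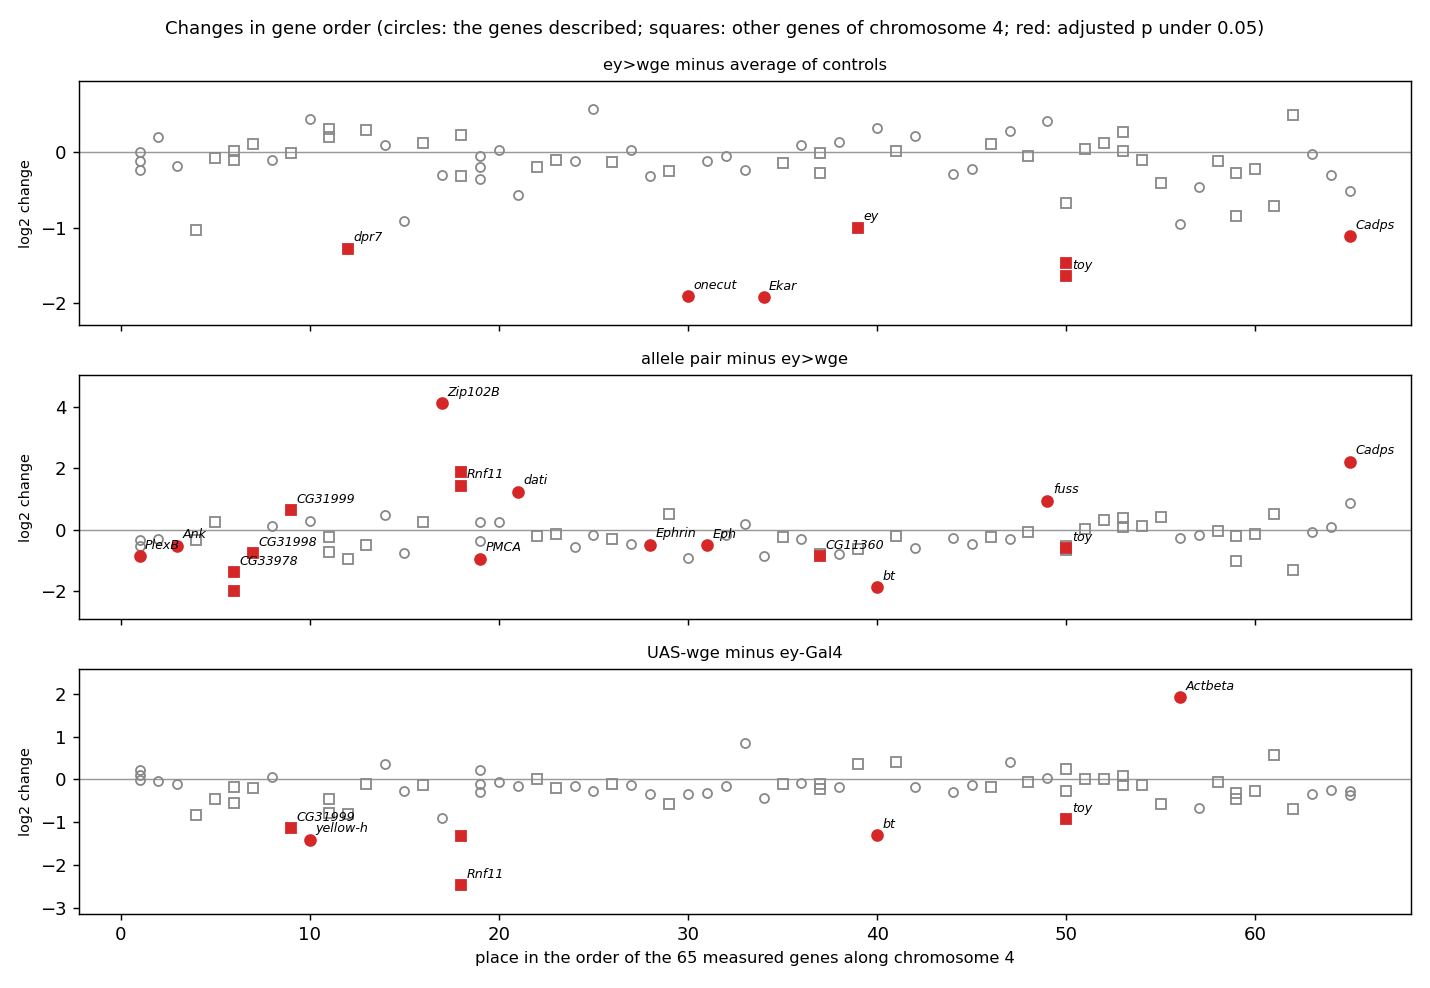
Log2 change of each tested chromosome 4 probe set, members and other genes, against the place of its gene in the order of 65 measured genes, in 3 comparisons. Circles are the members, squares the other genes, and filled red points have an adjusted p under 0.05. Zip102B at place 17 stands beside Rnf11 at place 18, and both lie above 0 in the allele-pair discs.

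The other chromosome 4 genes on the array were read in the same way. They were 31 genes, and without ey and toy, 35 of their probe sets were tested. Of these 35, 1 changed in ey>wge against both controls averaged (2.86%, where 2.97% of all probe sets did), and 7 changed in the allele-pair discs against ey>wge, 3 higher and 4 lower (20%, where 6.8% of all did). Against the mean of both controls 17 changed in the allele-pair discs, 7 higher and 10 lower (48.6%, where 21.1% of all did). The other chromosome 4 genes were also brighter than all tested probe sets, with a median log2 signal of 8.413 to 9.938 per array. Their median log2 changes in these 3 comparisons were -0.083, -0.188 and -0.198, against -0.117, -0.3 and -0.405 for the members. The Pax genes were low in ey>wge, where ey fell by 1.00 ± 0.17 (adjusted p = 0.0014) and toy by 1.46 ± 0.10 in its brightest probe set (adjusted p = 8.9e-08). The other toy probe sets differed by -1.64 (adjusted p = 7.35e-05) and by -0.68, which did not pass the test (adjusted p = 0.167). CG33978 fell in the allele-pair discs against ey>wge, by 1.38 and 2.01 in its pair of probe sets (adjusted p = 0.0017 and 0.00015).

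Some changed members were neighbours of other changed genes in the order of the 65 measured genes. Rnf11, next to Zip102B, gave 828, 653 and 592 on the ey-Gal4 arrays, 74.6, 101.5 and 173 on the UAS-wge arrays, 231, 392 and 401 on the ey>wge arrays and 1099, 796 and 913 on the allele-pair arrays in 1 probe set. It was lowest in UAS-wge, and the allele-pair arrays were the highest apart from an ey-Gal4 array that exceeded 1 of them. Rnf11 rose by 1.44 ± 0.26 in the allele-pair discs against ey>wge (adjusted p = 0.0036) and fell by 2.47 ± 0.26 in UAS-wge against ey-Gal4 (adjusted p = 6.6e-06), with 1.89 and -1.33 in its second probe set. CG31999, named after its values were seen because it lies next to yellow-h, fell by 1.14 ± 0.18 in UAS-wge against ey-Gal4 (adjusted p = 0.00048) and rose by 0.63 in the allele-pair discs against ey>wge (adjusted p = 0.041). Neighbours did not always move alike. Against ey>wge yellow-h differed by 0.28 in the allele-pair discs (adjusted p = 0.56, limma). PMCA, next to Rnf11 on its other side, fell there by 0.94 in the first probe set given above (adjusted p = 0.00045), and its other tested probe sets did not pass. No test of neighbouring changes was made.

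The factors known to act on the chromatin of chromosome 4 were read beside its genes. Of 13 listed, 10 had a probe set, and none changed in ey>wge against both controls averaged, where their log2 changes lay between -0.32 and 0.27. In the allele-pair discs against ey>wge HP4 rose by 0.78 (adjusted p = 0.0065), and Su(var)2-HP2 fell by 1.09 (adjusted p = 0.021) and JIL-1, a histone H3 kinase, by 0.70 (adjusted p = 0.038). Pof differed by 0.048 there (adjusted p = 0.912), and 6.8% of all probe sets changed there. Against both controls averaged 2 of the 10 rose and 5 fell in the allele-pair discs, where 8.46% of all probe sets rose and 12.7% fell. The summed signal of the 10 was 20115 to 20715 in ey>wge, and 21676, 25255 and 28594 on allele-pair arrays 1, 2 and 3. The sum and the median moved in opposite directions. In the allele-pair discs the median log2 change of the 10 was -0.39 against ey>wge and -0.335 against both controls averaged. The part of these factors in the members' changes was not tested.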

How the data were processed

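Total RNA from eye-antennal discs was amplified, labelled with biotin and hybridised to a Drosophila Affymetrix array, 3 arrays for each of 4 genotypes. The authors deposited 1 signal intensity per probe set on a linear scale, made with MAS5 per the submitters' processing notes (software version and settings not given in the sources used here). The mean over the middle of each array, trimmed by 2% at each end, was 500.01 to 500.02, so the deposited intensities had been scaled to a common level. Arrays carry no read depth: their number and the signal over background limit the precision.

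Intensities were taken as log2(intensity + 16), and probe sets above the 40th percentile of their own array on at least 3 of the 12 arrays were kept, after 183 control probe sets were left out. Of 13817 kept, 10812 had 1 gene symbol in the platform annotation, 324 several and 2681 none. Only single-symbol probe sets were named, and probe sets of 1 gene were kept apart. Probe set names ending in s or x mark probes that can match transcripts of other genes, and among the changed members the Ephrin, Eph, PlexB, Ank, Syt7, myo, Pur-alpha and first PMCA probe sets end in s. All 12 arrays entered 1 fit with a mean per genotype in limma 3.58.1 (R 4.3.3; lmFit and eBayes with a trend), 2-sided, with Benjamini-Hochberg adjustment over all 13817, and a change was called at an adjusted p under 0.05. "Both controls averaged" is the mean of the ey-Gal4 and UAS-wge means. The 6 comparisons share arrays and are not independent. No probe set was dropped from or imputed in the fit.

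The members and the gene lists were chosen with earlier results of these data known, so no test over a list was made. Every member was accounted for. Array values were given for each member called in any comparison and for the members of highest mean signal without a call in each role, up to a pair a role (mGluR by its range). Up to 4 other chromosome 4 genes of smallest adjusted p were named. Gene spans and order came from a RefSeq gene table of Release 6 plus ISO1 MT. The array's own build is not given in the sources used here, so no coordinates are printed. 30 of the 38 tested member probe sets were above the filter on all 12 arrays. 4 were below it and not tested: 1 each of PlexB, dati, Ank and fd102C. The largest share of identical values between a pair of arrays was 0.396%, so no array was a copy of another. Same-numbered arrays were not shown to be paired (correlation of deviations -0.049 to 0.083 over 18 pairs). Alternatives changed the pseudocount, filter, normalization, variance model, arrays used, threshold and span trend.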

Additional observations from a re-analysis of the deposited data

How the results depend on the processing

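Each count was recomputed under 25 alternatives, each member call too (24 for dati), and each median under all but the threshold of 0.01. Of the 43 called changes of named members, 20 were called under every one, and 15 were lost when at least 1 array was left out. The fall of unc-13 in the allele-pair discs against both controls averaged reversed to 0.161 with allele-pair array 1 alone. The number of changed members in ey>wge was 5 with array weights, 6 with only the arrays of the comparison and 6 with allele-pair array 1 alone against both controls averaged, and 5, 6 and 7 against ey-Gal4. In the allele-pair discs against ey>wge it was 4 without a variance trend, 20 with array weights, 4 with only the arrays of the comparison, 3 with allele-pair array 1 alone and 4 at a threshold of 0.01, and against both controls averaged it was 9 with allele-pair array 1 alone. The members' median against ey>wge was 0.001 with arrays centred, -0.052 with allele-pair array 1 alone and -0.045 with the span trend removed. Against the controls it was -0.079, -0.18 and -0.121, and -0.55 with the filter at the 60th percentile. Over all probe sets the count in ey>wge against both controls averaged was 675 with array weights, 722 with only the arrays of the comparison, 724 with allele-pair array 1 alone and 254 at a threshold of 0.01, in place of 410. For the allele pair against ey>wge it was 4409, 252, 173 and 251 in the same order, 281 without a variance trend and 1560 with arrays centred, in place of 939, and against both controls averaged it was 6454 with array weights, 657 with allele-pair array 1 alone and 1559 at 0.01, in place of 2920. Against ey-Gal4 the ey>wge count was 831, 845, 890 and 267, with 321 without a variance trend, in place of 502, and against UAS-wge 899, 842, 842 and 295 in place of 511. UAS-wge against ey-Gal4 gave 1045 with allele-pair array 1 alone and 398 at 0.01 in place of 690. The cause of these moves was not tested. Leaving out 1 array at a time gave 2 to 5 changed members in ey>wge against both controls averaged, 2 to 5 against ey-Gal4, 3 to 6 against UAS-wge, 4 to 17 in the allele-pair discs against ey>wge, 15 to 23 against both controls averaged, and 2 to 3 in UAS-wge against ey-Gal4. The medians ranged, in the same order, from -0.166 to -0.099, -0.26 to -0.118, -0.129 to -0.061, -0.437 to -0.142, -0.504 to -0.254 and -0.226 to -0.112. With the replicate number as a block the counts were, in that order, 3, 3, 4, 12, 22 and 3. Of all probe sets 3.06%, 3.71%, 3.85%, 7.64%, 22.0% and 4.89% changed with that block. The share of all probe sets changed with 1 array left out is not given here. Signal over background limits dim members: Gat, sv, mGluR and NfI were above the filter on 8, 7, 5 and 4 of 12 arrays.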
